A study of Homo sapiens and Mus musculus with 12 samples.

Results

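The LRRC8 genes encode the subunits of the volume-regulated anion channel. All 5 members were found by symbol, Lrrc8a to Lrrc8e among 17383 genes measured in mouse colon and LRRC8A to LRRC8E among 15590 genes measured in RKO cells. The family was chosen by FPKM values (fragments per kilobase of transcript, scaled to library size) of the colon comparison: Lrrc8b was higher in all 3 Zfp280c knock-out colon libraries than in all 3 wild-type ones. Its values in that comparison, and those of its partners, are therefore given as a description with no p-value. Counts of calls among them in that comparison stand beside the share over all genes, and nothing is read from them. The RKO comparison played no part in the choice and is tested.

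The colon libraries came from C57BL/6J mice aged 12 weeks, 3 labelled Zfp280c knock-out and 3 wild-type. The RKO libraries came from a human colon cancer line that carried, in both groups, a tetracycline-inducible hairpin construct that targets ZNF280C. In that line, 3 libraries had 1 ug/ml doxycycline for 72 h and 3 were kept without it. No library with doxycycline and an inactive shRNA was analysed here, so the knockdown and the drug cannot be told apart. How the mouse allele was made, and which stretch of colon was taken, are not given in the sources used here. Nothing in the labels says that the RKO libraries came from separate cultures, so the p-values below measure the spread between these libraries, which may be technical.

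The channel opens when a cell swells and lets chloride and small organic solutes out, after which water follows and the cell returns to its size. LRRC8A is the obligatory subunit, and a working channel needs it together with at least another member of the family. The partner sets what passes through: LRRC8D favours uncharged solutes such as taurine and admits some drugs, and LRRC8E and LRRC8C have been tied to passage of the immune messenger cGAMP. LRRC8B is the least studied partner and has also been linked to calcium leak from the endoplasmic reticulum. In the gut, epithelial cells change volume as they absorb and secrete salt and solutes.

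In the human genome LRRC8B, LRRC8C and LRRC8D lie in one run on chromosome 1, with 1 other protein-coding gene model between them, whereas LRRC8A is on chromosome 9 and LRRC8E on chromosome 19. The 250 bases before the start of LRRC8B are shown because it is the human counterpart of the gene that stood apart in colon, and those before LRRC8D because it is a member of the same run whose mouse counterpart did not. Both are from RefSeq, GRCh38.p14, plus strand, at chr1:89524579-89524828 and chr1:89820782-89821031, with CpG dinucleotides in capitals.
LRRC8B: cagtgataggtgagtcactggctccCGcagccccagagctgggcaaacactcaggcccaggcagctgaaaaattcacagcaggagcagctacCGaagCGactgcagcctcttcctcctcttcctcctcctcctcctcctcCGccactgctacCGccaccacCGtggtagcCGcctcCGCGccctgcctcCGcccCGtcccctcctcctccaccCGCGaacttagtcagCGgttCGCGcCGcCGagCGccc
LRRC8D: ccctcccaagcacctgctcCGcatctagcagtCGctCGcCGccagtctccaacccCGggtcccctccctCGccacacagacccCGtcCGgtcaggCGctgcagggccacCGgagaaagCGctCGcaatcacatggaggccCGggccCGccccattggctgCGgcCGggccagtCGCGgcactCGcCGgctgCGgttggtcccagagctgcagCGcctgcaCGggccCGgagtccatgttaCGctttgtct
The stretch before LRRC8B held 19 CpG dinucleotides and 66.8% G and C, and that before LRRC8D held 25 and 70.8%. Over 35116 human promoter stretches of the same length the medians were 11 and 58.0%, and 93.9% held at least 1 CpG. The ratio of observed to expected CpG was 0.76 and 0.82 in these stretches, against a median of 0.56. A second start of LRRC8D had 22 CpG dinucleotides and a ratio of 0.70 before it. The stretch before LRRC8C, also in the run, had 37 and a ratio of 0.97. The letters are a description of the human sequence, and no mouse promoter was read.

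The colon libraries did not divide by genotype alone. Zfp280c was at 0.09, 0.09 and 0.22 FPKM in knock-out replicates 1 to 3, and between 2.25 and 3.17 in the wild-types, as labelled. HOX genes, which mark position along the gut, put wild-type replicate 2 with the knock-outs. Hoxb6, a proximal gene, was at 8.91 to 18.24 FPKM in the knock-outs and at 0.65, 18.23 and 0.20 in wild-type replicates 1, 2 and 3. Hoxb13, a distal gene, was at 2.23 to 18.89 in the knock-outs and at 336.32, 14.72 and 506.98 in those wild-types. A position score, the mean log2(FPKM + 1) of 3 proximal HOX genes minus that of 5 distal ones, ran from 1.22 to 2.58 over the knock-outs. It was 1.81 for wild-type replicate 2, against -2.45 and -4.43 for the remaining wild-types. The Lrrc8 genes are therefore also given without wild-type replicate 2 and beside that library alone. The lists of related genes, neighbouring genes and cell type markers are also given without it.

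Lrrc8a (Entrez gene 241296), the obligatory subunit, had the highest level of the family in colon. It was at 8.84, 9.97 and 9.79 FPKM in knock-out replicates 1 to 3 and at 11.56, 9.43 and 12.52 in wild-type replicates 1 to 3. The groups overlapped, because wild-type replicate 2 lay among the knock-outs and the other 2 wild-types lay above them. The group means were 9.53 ± 0.607 and 11.2 ± 1.58 (SD, n = 3 each), a log2 fold change, here and below of log2(FPKM + 1), of -0.20 ± 0.12 (SE).

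Lrrc8b (Entrez gene 433926) was the member whose groups did not overlap. It was at 7.01, 8.60 and 7.75 FPKM in knock-out replicates 1 to 3 and at 1.86, 3.31 and 1.45 in wild-type replicates 1 to 3. Wild-type replicate 2 had the highest level among the wild-types and still lay below every knock-out library. The means were 7.79 ± 0.796 and 2.21 ± 0.977 (SD, n = 3 each), a 3.53-fold ratio. The log2 fold change was 1.49 ± 0.22 (SE), larger than that of 99.2% of the 11366 genes tested. Such a separation with the knock-outs higher was seen in 7.13% of those genes, and, as this difference chose the family, nothing is read from it. Fewer cells of a type and less RNA per cell cannot be told apart in these bulk samples.

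**Figure D1:**
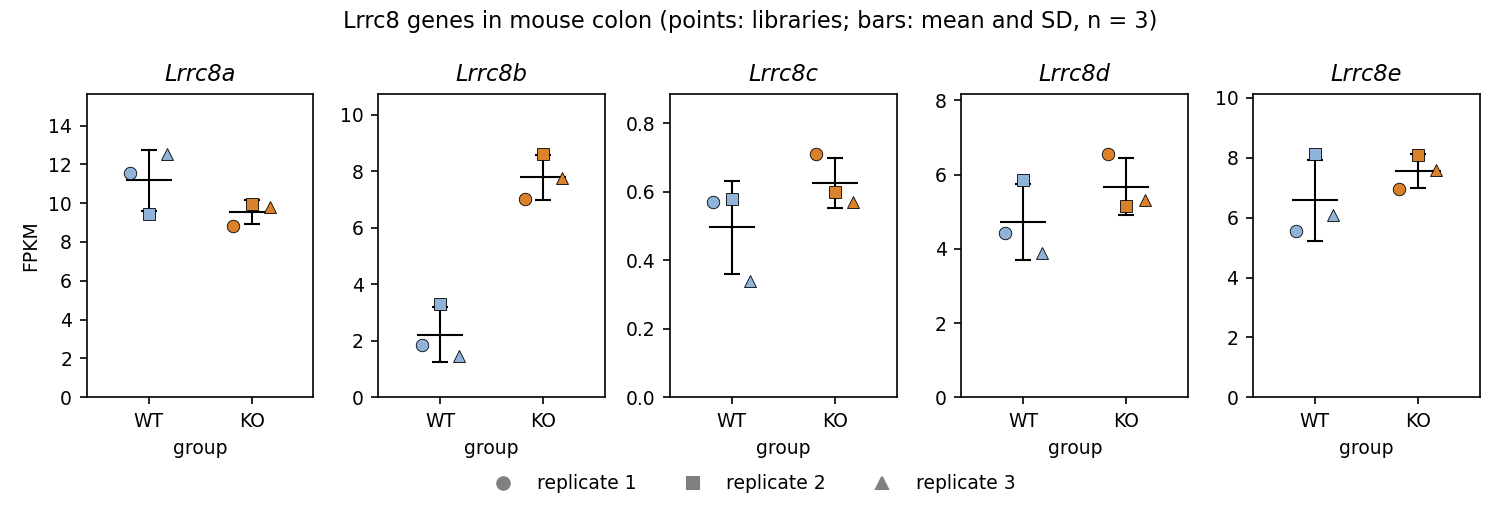
FPKM of the 5 Lrrc8 genes (panels, each with its own axis from 0) in wild-type (WT) and Zfp280c knock-out (KO) colon; points are libraries with a shape for each replicate, and lines and bars are the mean and SD of 3 libraries. Lrrc8b spans 7.01 to 8.60 in KO and 1.45 to 3.31 in WT, whereas the groups of the other 4 genes overlap.

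Lrrc8c (Entrez gene 100604) had the lowest level of the family, between 0.34 and 0.71 FPKM, and did not reach the mean of 1 FPKM needed for testing. It stood at 0.71, 0.60 and 0.57 in knock-out replicates 1 to 3 and at 0.57, 0.58 and 0.34 in wild-type replicates 1 to 3. The groups overlapped, and the log2 fold change in a fit without the minimum was 0.12 ± 0.08 (SE).

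Lrrc8d (Entrez gene 231549), the taurine-passing partner, was at 6.55, 5.16 and 5.33 FPKM in knock-out replicates 1 to 3 and at 4.43, 5.86 and 3.88 in wild-type replicates 1 to 3. Wild-type replicate 2 again lay inside the range of the knock-outs, with the other 2 wild-types below. The means were 5.68 ± 0.758 and 4.72 ± 1.02 (SD, n = 3 each), and the log2 fold change was 0.23 ± 0.16 (SE).

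Lrrc8e (Entrez gene 72267), the partner tied to cGAMP passage, was at 6.95, 8.09 and 7.61 FPKM in knock-out replicates 1 to 3 and at 5.55, 8.12 and 6.08 in wild-type replicates 1 to 3. Its highest value of all 6 libraries was that of wild-type replicate 2. The means were 7.55 ± 0.572 and 6.58 ± 1.36 (SD, n = 3 each), and the log2 fold change was 0.19 ± 0.14 (SE).

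Of the 5 genes, 4 reached the minimum mean and were tested with all other genes. Of these 4, 0 passed at an adjusted p below 0.05 (limma), as did 0% of all 11366 genes, of which 1420 (12.5%) had an unadjusted p below 0.05. The log2 fold changes of the 4 had a median of 0.21, against -0.02 over all genes tested. That median rests on a set that includes the gene that chose it.

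By level per length over all 6 libraries, the order was Lrrc8a, Lrrc8e, Lrrc8d, Lrrc8b and Lrrc8c, with means of 10.4, 7.07, 5.20, 5 and 0.562 FPKM. Lrrc8a was above Lrrc8e in 6 of 6 libraries and their ranges did not overlap. Lrrc8e was above Lrrc8d in 6 of 6 libraries, although the ranges overlapped across libraries. Lrrc8d and Lrrc8b could not be ordered over the 6 libraries: Lrrc8d was higher in all 3 wild-types and in 0 of the 3 knock-outs. Lrrc8b was above Lrrc8c in 6 of 6 libraries without overlap. Lrrc8b stood below Lrrc8d in all 3 wild-types and narrowly above Lrrc8e in all 3 knock-outs (7.01, 8.60 and 7.75 against 6.95, 8.09 and 7.61). The place of Lrrc8b follows from the values that chose the family, and no counting error is known, so nothing is read from it.

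The make-up of the family's RNA differed with the level of Lrrc8b, which follows from the values that chose the family, and nothing further is read from it. The shares of the other members also depend on Lrrc8b, which is part of the sum. Lrrc8b made up 23.3%, 26.5% and 25.0% of the summed FPKM of the 5 genes in knock-out replicates 1 to 3, and 7.76%, 12.1% and 5.97% in wild-type replicates 1 to 3. Relative to Lrrc8a, its level was 0.793, 0.863 and 0.792 in the knock-outs and 0.161, 0.351 and 0.116 in the wild-types. The share of Lrrc8a ran from 29.4% to 31.5% over the knock-outs. It was 34.5% for wild-type replicate 2, against 48.2% and 51.6% for the remaining wild-types. The summed level of all 5 genes was 30.1 to 32.4 FPKM in the knock-outs and 24 to 27.3 in the wild-types. Without Lrrc8b the sums overlapped, at 23.0 to 23.8 in the knock-outs and 22.1, 24 and 22.8 in wild-type replicates 1 to 3. These shares are of RNA, and the subunits in the channel were not measured.

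**Figure D2:**
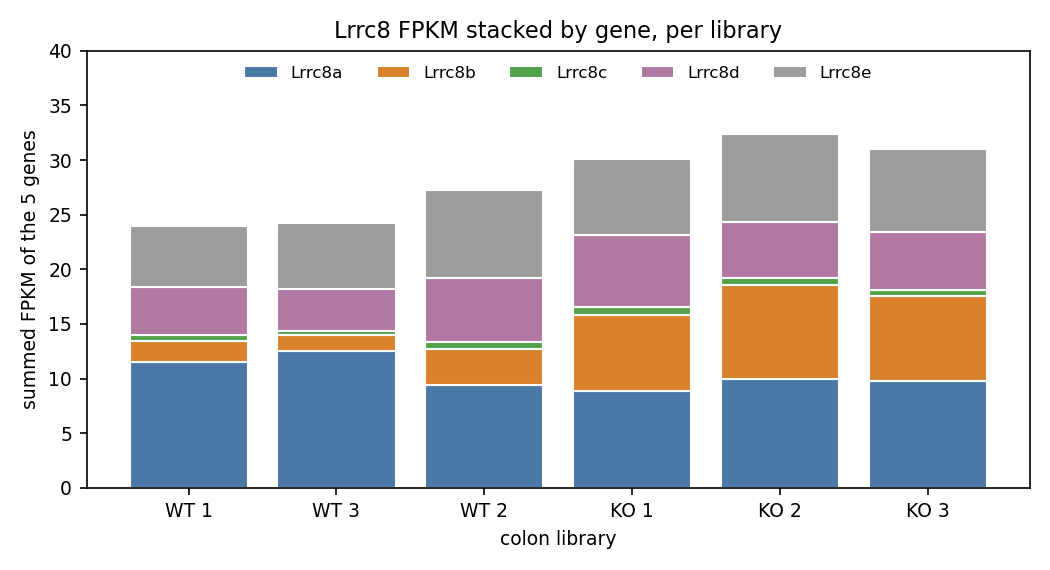
Summed FPKM of the 5 Lrrc8 genes in each colon library, stacked by gene, with wild-type (WT) replicate 2 drawn next to the knock-outs (KO). The Lrrc8b segment is 7.01 to 8.60 FPKM in KO and 1.45 to 3.31 in WT, while the other 4 genes together span 22.1 to 24 over all 6 libraries.

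Set against wild-type replicate 2, the wild-type library with the HOX pattern of the knock-outs, Lrrc8b also parted from its partners. The mean of the knock-outs was 2.35 times the level of that library for Lrrc8b, and the lowest knock-out was 2.12 times. The same ratio of means was 1.01 for Lrrc8a, 1.08 for Lrrc8c, 0.969 for Lrrc8d and 0.930 for Lrrc8e. On the log2(FPKM + 1) scale the Lrrc8b difference was 1.02, larger than in 99.9% of genes tested, and the median over those genes was -0.03. This rests on 1 wild-type library and has no replicate check. The difference also includes the libraries that chose the family.

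Without wild-type replicate 2, the groups did not overlap for Lrrc8a (lower in the knock-outs) or for Lrrc8b, Lrrc8d and Lrrc8e (higher), and they met at 0.57 FPKM for Lrrc8c. A separation in these directions was then seen in 24.9% (lower) and 23.5% (higher) of the 11366 genes. In that fit the log2 fold change was -0.31 ± 0.10 for Lrrc8a, 1.73 ± 0.13 for Lrrc8b, 0.37 ± 0.13 for Lrrc8d and 0.33 ± 0.11 for Lrrc8e (SE). Of these 4 genes, Lrrc8b passed (higher), as did 9.21% of 11344 genes tested, with a further 7.19% lower and 16.4% in all. As the family was chosen on this contrast, nothing is read from that call. With the position score as a covariate, Lrrc8b stood at 1.08 ± 0.18 and Lrrc8a, Lrrc8d and Lrrc8e at 0.02 ± 0.11, -0.07 ± 0.13 and -0.02 ± 0.16 (SE). That fit rests largely on wild-type replicate 2, and 0 of the 11366 genes passed (limma; 424 had an unadjusted p below 0.05).

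**Figure D3:**
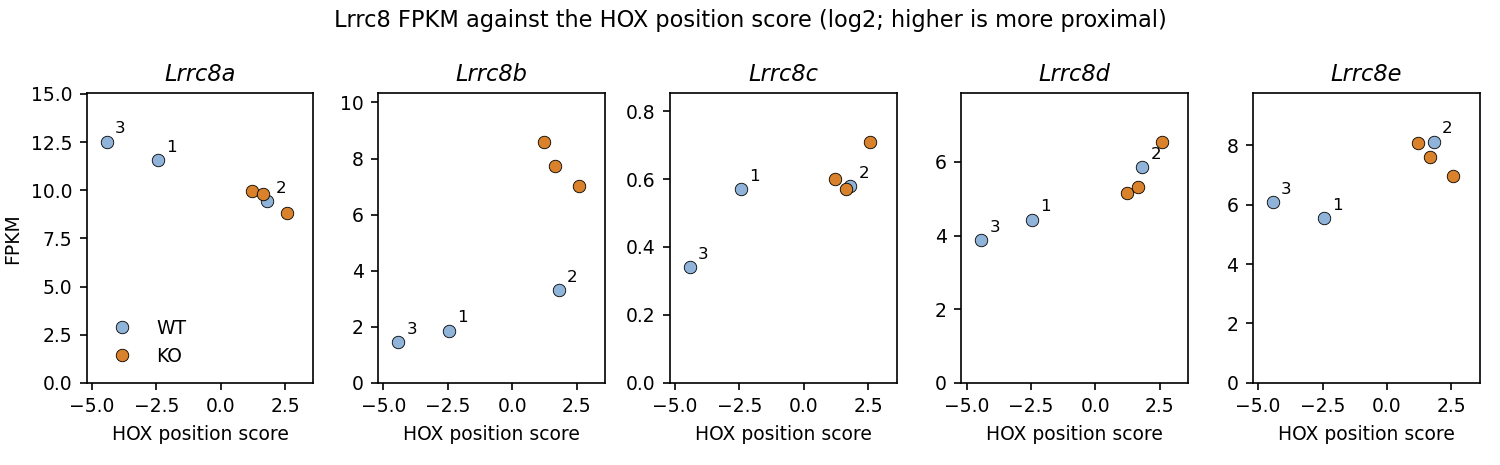
FPKM of each Lrrc8 gene against the HOX position score of the library (log2 scale, higher is more proximal), with wild-type (WT) points numbered by replicate and knock-out (KO) points in orange. Wild-type replicate 2, at a score of 1.81, lies among the KO points for Lrrc8a, Lrrc8c and Lrrc8d, just above them for Lrrc8e (8.12 against at most 8.09 FPKM) and below them for Lrrc8b.

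**Figure D4:**
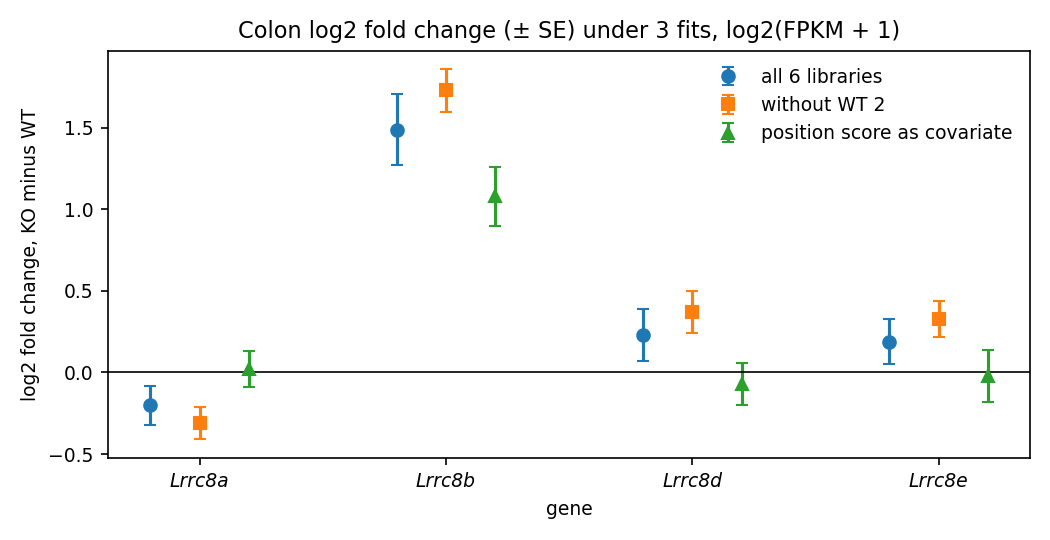
Log2 fold change (knock-out minus wild-type, log2(FPKM + 1), bars are SE) of the 4 tested Lrrc8 genes with all 6 libraries, without wild-type replicate 2, and with the position score as a covariate. Lrrc8b stays between 1.08 and 1.73, and the other 3 genes lie between -0.31 and 0.37.

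Markers of other cell types were read beside Lrrc8b. The 5 adipocyte markers summed to 40.6 to 81.4 FPKM in the knock-outs and 3.07 to 28.5 in the wild-types. All 3 that were tested, Cfd, Adipoq and Cidec, had groups that did not overlap, as had 7.13% of all genes tested with the knock-outs higher. Lep, a defining adipocyte hormone, was listed at 0 in 2 wild-type libraries, replicates 1 and 3. Cfd was at 40.66, 13.78 and 47.19 FPKM in knock-out replicates 1 to 3 and at 2.28, 7.55 and 1.37 in wild-type replicates 1 to 3. Adipoq was at 6.02, 2.35 and 8.90 and at 0.18, 1.21 and 0.13, and Cidec at 26.17, 23.97 and 23.20 and at 4.98, 19.41 and 1.46. In the wild-types all 3 were highest in replicate 2 and lowest in replicate 3, as was Lrrc8b. In the knock-outs Lrrc8b was highest in replicate 2, where Cfd and Adipoq were lowest and Cidec lay between the other 2 libraries. The 6 smooth muscle markers summed to 461 to 739 in the knock-outs and 355 to 577 in the wild-types. Epithelial markers, 7 of 7 present in every library, summed to 8033 to 8833 and 6454 to 8526. The 5 goblet markers summed to 2067 to 3599 and 3328 to 4324, but they did not move together. By log2 fold change 2 were positive and 3 negative, with Tff3 at -1.05, Fcgbp at -1.17 and Spdef at 0.77. The 6 immune markers (8.42 to 18.1 against 11.6 to 24.5) and 5 endothelial markers (1.90 to 2.81 against 2.68 to 4.89) were low and overlapped between groups, as did the 6 of enteric neurons and glia (9.17 to 15.9 against 7.87 to 15.2). Without wild-type replicate 2, all 3 tested adipocyte markers were called higher, as were 3 of 6 smooth muscle markers and 2 of 7 epithelial ones. Of 5 goblet markers 2 were called higher and 1 lower, and of 5 immune markers 1 was called higher. The 1 endothelial marker tested was called lower, and 0 of 2 enteric neuron and glia markers were called. In that fit 9.21% of all genes were called higher and 7.19% lower. The part of these cell types in the Lrrc8b difference was not tested.

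Other genes with a profile like that of Lrrc8b over the 6 libraries were sought by the root mean square difference of centred log2(FPKM + 1) values. The closest was 9030624G23Rik (0.148), at 5.38, 5.24 and 4.86 FPKM in knock-out replicates 1 to 3 and 0.98, 2.16 and 1.14 in wild-type replicates 1 to 3. Next came Dtx3l, a ubiquitin ligase gene (0.210), and 5730507C01Rik (0.226). Sema7a, a membrane-anchored semaphorin gene (0.239), was at 2.89, 3.4 and 3.05 in the knock-outs and 0.88, 1.98 and 0.41 in the wild-types. Ugt1a6a, a glucuronosyltransferase gene whose family shares exons so that its counts are uncertain (0.240), was at 40.21, 47.36 and 34.86 and at 13.94, 29.72 and 13.29. In each of these the knock-outs lay above wild-type replicate 2, which lay above the other 2 wild-types, as for Lrrc8b. The genes were picked for their likeness to that profile, so nothing is read from the shared order. The median over 11365 genes was 0.811. Lrrc8d (0.659) and Lrrc8e (0.668) ranked 1543 and 1655 in likeness, nearer than the median gene, and Lrrc8a (0.919) ranked 9450. None of them was among the 5 closest genes. The profile is that of the gene that chose the family, so nothing is read from these ranks.

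The genes around the LRRC8B, LRRC8C and LRRC8D run were taken from the human order, 10 protein-coding genes on each side, and looked up by symbol in colon. Of 20, 17 were in the mouse table and 10 were tested. Of these, 0 passed (limma; 4 had an unadjusted p below 0.05, as did 12.5% of all genes), and their median log2 fold change was 0.33 against -0.02 over all genes. Without wild-type replicate 2, 3 were called higher (Gbp3, Gbp6 and Cdc7, of which Gbp3 and Cdc7 are named after their values were seen) and 0 lower. In that fit 9.21% of all genes were called higher and 7.19% lower, and the median of the 10 was 0.33. Gtf2b, a general transcription factor gene, was higher in all 3 knock-outs (34.09, 30.20 and 31.44 FPKM, against 25.57, 26.31 and 25.34). Zfp326 was lower in all 3 (9.21, 8.65 and 8.16, against 10.97, 9.92 and 12.09). Of all genes tested, 7.13% were higher without overlap and 9.79% lower. Gbp6, an interferon-inducible GTPase gene next to LRRC8B in the human order, overlapped between groups, at 8.29, 3.35 and 5.87 against 1.66, 3.83 and 1.67. The mouse order was not read.

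Genes that work beside the channel had no call in colon with all 6 libraries. Of 17 other chloride channel genes tested, 0 passed (limma; 6 had an unadjusted p below 0.05, as did 12.5% of all genes). Of the 17, 11 were positive, where 44.6% of all genes were, and the median log2 fold change was 0.08. Without wild-type replicate 2, 5 were called higher and 2 lower, with a median of 0.03. In that fit 9.21% of all genes were called higher and 7.19% lower. Best2, a bestrophin channel gene of goblet cells, was at 2.44, 0.70 and 2.82 FPKM in the knock-outs and 16.70, 3.58 and 38.46 in wild-type replicates 1 to 3. Here too wild-type replicate 2 was the wild-type closest to them. Ttyh2 and Ttyh3 belong to the tweety family, once proposed as swelling-activated channels. Ttyh2 was at 12.10, 11.23 and 11.99 in the knock-outs and 6.98, 10.53 and 7.84 in the wild-types, and Ttyh3 at 18.63, 14.96 and 20.85 and at 11.75, 16.33 and 10.38. Panx1, a pannexin and thus a distant relative of the LRRC8 proteins, did not overlap between groups, at 23.19, 21.79 and 19.18 against 14.85, 18.42 and 15.12. The knock-outs were higher without overlap in 7.13% of all genes tested. Panx1 was also called higher without wild-type replicate 2.

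Among 13 tested genes of volume-regulating ion transport, 0 passed in limma and the median log2 fold change was -0.02. Of these, 1 had an unadjusted p below 0.05 (limma), against 12.5% of all genes. Without wild-type replicate 2, 3 were called higher and 1 lower, where 9.21% of all genes were called higher and 7.19% lower. The same shares of all genes stand beside the osmolyte and cGAMP counts below. Slc4a2, an anion exchanger gene, was at 106.21, 97.17 and 108.68 FPKM in the knock-outs and 73.85, 97.70 and 48.19 in the wild-types, which overlap through wild-type replicate 2 (log2 fold change 0.56 ± 0.24, SE). Of 5 tested organic osmolyte genes, 0 passed (limma; 4 had an unadjusted p below 0.05), and the median was 0.09. Without wild-type replicate 2, 1 was called higher and 2 lower, with a median of 0.13. Akr1b3, which makes sorbitol, was at 33.59, 35.55 and 35.20 in the knock-outs and 80.84, 41.56 and 105.95 in the wild-types. Slc5a3, a myo-inositol transporter gene, was at 2.88, 4.78 and 5.07 and at 9.60, 5.08 and 10.36, so that wild-type replicate 2 lay next to the highest knock-out. Slc38a2, an amino acid transporter gene, was at 57.88, 60.12 and 58.55 and at 51.72, 53.20 and 44.83. Slc6a6, the taurine transporter gene, was at 37.43, 32.82 and 37.13 in the knock-outs and 20.91, 34.05 and 16.17 in the wild-types, where replicate 2 was again the high one. Of 7 cGAMP signalling genes, 0 passed (limma; 1 had an unadjusted p below 0.05), with a median of 0.12. Without wild-type replicate 2, 0 were called higher and 1 lower, with a median of 0.26. The exporter gene Abcc1 was at 6.44, 6.58 and 7.21 in the knock-outs and 9.87, 7.62 and 13.19 in wild-type replicates 1 to 3. The kinase gene Tbk1 was at 25.77, 24.71 and 26.56 and at 23.21, 22.79 and 17.06. The adaptor gene Tmem173 was at 1.48, 0.75 and 2 and at 2.83, 1.58 and 3.48, with wild-type replicate 2 inside the range of the knock-outs.

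In RKO cells the same family was compared after induction of the shRNA against ZNF280C, to ask whether any member differs there. None of the 5 genes passed, and in each the groups overlapped. ZNF280C itself was at 123, 99.6 and 79.1 signal with doxycycline and at 192, 172 and 227 without (adjusted p = 0.0276, limma). That call did not hold without any 1 of 5 of the 6 libraries (adjusted p = 0.0621 to 0.0922), whereas without doxycycline replicate 1 it did (0.0294). Signal is the deposited normalized value, which is not known to be per length, so no order of levels between these genes is given. Some pairs of libraries hold exactly equal values for many genes: doxycycline replicate 2 and untreated replicate 2 for 310 genes, and doxycycline replicate 3 and untreated replicate 1 for 526. With such libraries taken as blocks, 0 of all genes passed (limma; 1670 had an unadjusted p below 0.05).

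LRRC8A was at 992, 1088 and 1031 signal in doxycycline replicates 1 to 3 and at 1093, 973 and 1036 in untreated replicates 1 to 3. The highest and the lowest library were both untreated. The log2 fold change, of log2(signal + 1), was 0.0046 ± 0.05 (SE; 95% interval -0.11 to 0.12; adjusted p = 0.977, limma).

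LRRC8B, whose mouse counterpart stood apart in colon, was at 448, 405 and 465 signal with doxycycline and at 441, 446 and 469.8 without. The lowest of the 6 libraries was doxycycline replicate 2 and the highest was untreated replicate 3. The means were 439 ± 30.9 and 452 ± 15.6 (SD, n = 3 each), and the log2 fold change was -0.04 ± 0.06 (SE; 95% interval -0.17 to 0.08; adjusted p = 0.769, limma). As a fold, the interval ran from 0.890 to 1.06.

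LRRC8C was at 779, 757 and 806 signal with doxycycline and at 770.4, 813 and 819.9 without, with a log2 fold change of -0.04 ± 0.04 (SE; 95% interval -0.13 to 0.06; adjusted p = 0.732, limma). LRRC8D was at 390.5, 365 and 385 with doxycycline and at 339, 406 and 391 without, which span both ends of its range (0.01 ± 0.07, SE; -0.14 to 0.16; adjusted p = 0.961, limma). LRRC8E was at 318, 358 and 329 with doxycycline and at 333, 317 and 340.5 without (0.02 ± 0.06, SE; -0.10 to 0.14; adjusted p = 0.910, limma). Over all 6 libraries the coefficient of variation was 3.22% for LRRC8C and at most 6.30%, for LRRC8D, among the 5 genes.

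**Figure D5:**
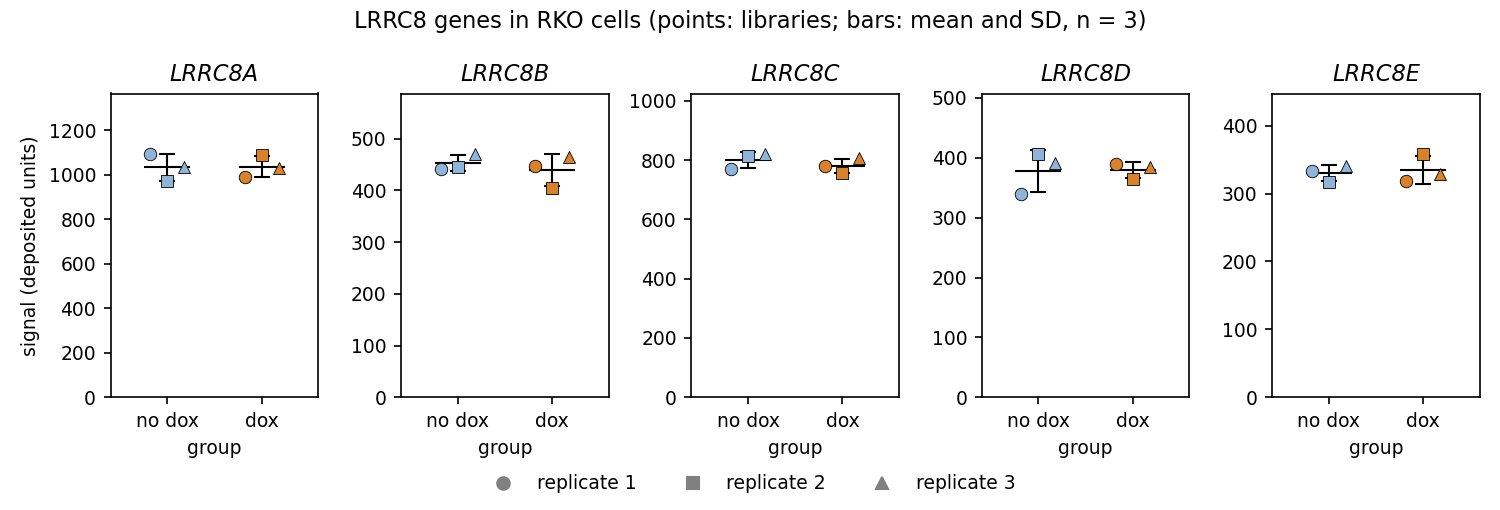
Deposited signal of the 5 LRRC8 genes (panels, each with its own axis from 0) in RKO cells without (no dox) and with (dox) doxycycline; points are libraries with a shape for each replicate, and lines and bars are the mean and SD of 3 libraries. In every panel the groups overlap, for example 405 to 465 with and 441 to 469.8 without doxycycline for LRRC8B.

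Of the 5 genes, 0 passed in either direction (limma) and 0 had an unadjusted p below 0.05. Of all 15590 genes, 1.14% were called (0.385% higher and 0.757% lower) and 17% (2656) had an unadjusted p below 0.05. That split of 60 higher and 118 lower became 72 and 59 when libraries were set to equal medians. Groups that do not overlap were seen in 21.9% of all genes and in 0 of these 5. The median log2 fold change of the 5 was 0.0046 against -0.01 over all genes. The intervals leave room for changes of up to 0.17 on the log2 scale. A difference of the size of the Lrrc8b difference in colon lies outside the interval of LRRC8B, but the 2 systems differ in species, tissue, loss of the target and normalization, and the difference between them was not tested.

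Among the related genes in RKO cells, OXSR1, a kinase that switches chloride cotransporters in response to volume and chloride, was the only 1 of 13 tested genes of volume-regulating ion transport that passed. It fell from 579 ± 4.42 to 507 ± 4.40 signal (SD, n = 3 each), and the log2 fold change was -0.19 ± 0.04 (SE, adjusted p = 0.0467, limma). The call did not hold without any 1 of the 6 libraries (adjusted p = 0.0826 to 0.164) or after rescaling to equal sums, equal medians or equal quantiles (adjusted p = 0.0599 to 0.0703). WNK4, a kinase upstream of it, did not pass at 0.34 ± 0.10 (adjusted p = 0.130), nor did the potassium channel gene KCNK5 at 0.11 ± 0.05 (adjusted p = 0.270). The median of the 13 was 0.01. Over all genes 1.14% were called and 17% had an unadjusted p below 0.05 (limma). Of 13 other chloride channel genes, 0 passed (limma; 2 had an unadjusted p below 0.05), with CLCN2 at 0.16, TTYH2 at 0.17 and TTYH3 at 0.10 and a median of -0.02. Of 3 organic osmolyte genes, 0 passed (limma; 1 had an unadjusted p below 0.05), with SLC38A2 at -0.18, the taurine transporter gene SLC6A6 at 0.10 and the osmotic stress factor NFAT5 at -0.0049. Of 6 cGAMP signalling genes, 0 passed (limma; 2 had an unadjusted p below 0.05), with TBK1 at -0.17, ABCC1 at 0.09 and IRF3 at 0.09, and the pannexin PANX1 stood at -0.06.

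Of the 20 genes around the human run of LRRC8B, LRRC8C and LRRC8D, 12 were tested in RKO cells and 0 passed (limma; 3 had an unadjusted p below 0.05). Their median log2 fold change was -0.07, with 10 of 12 negative, where 55.1% of all genes were negative, 17% had an unadjusted p below 0.05 and the median was -0.01. Nothing particular to these genes is read from that. ZNF326, beside LRRC8D, was at -0.14 ± 0.05, the replication kinase gene CDC7 at -0.15 ± 0.06 and ZNF644 at -0.14 ± 0.06 (SE). Of 7 epithelial markers, 5 were in the RKO table, with KRT8 at 819 ± 44.0 against 698 ± 22.3 signal (SD, n = 3 each), and 0 passed (limma; 1 had an unadjusted p below 0.05). Summed levels with and without doxycycline did not overlap for the 3 smooth muscle markers in the table (679.9 to 723 against 574 to 629). Taken singly, only TAGLN among them did not overlap, whereas ACTA2 overlapped and MYH11 stood at -0.04. The 1 endothelial marker (23.1 to 23.8 against 15.7 to 20.4) and the 1 adipocyte marker (57.8 to 61.6 against 40.1 to 56) did not overlap either. Groups did not overlap in 21.9% of all genes, and in 8.65% the doxycycline libraries were the higher ones. None of the 5 goblet, 6 immune or 6 enteric neuron and glia markers was in the RKO table. Transcript GC content was 57.6% for LRRC8A and 57.5% for LRRC8E, above the median of 48.3%, and 39.0%, 38.1% and 42.8% for LRRC8B, LRRC8C and LRRC8D, below it. With the trend of signal with GC content removed in each library, LRRC8A and LRRC8E stood at -0.04 and -0.03 and LRRC8B, LRRC8C and LRRC8D at 0.02, 0.03 and 0.05, so that 4 of the 5 signs turned and 0 passed in limma.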

How the data were processed

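RNA of 12 libraries was compared, 3 per group, each table on its own. Per the submitters' processing notes, HISAT, Bowtie2, HTSeq, edgeR and the build hg19 were used, without versions or roles; no mouse build is given. Mouse values are FPKM, per the file headers. The name of the RKO table points to FPKM and ComBat, which adjusts for batches. If batches were adjusted, the RKO standard errors, intervals and p-values measure the spread left after that step. The columns of the RKO table sum to 9050160.5 to 9195210.8, too high for FPKM, so the authors' deposited values are called signal here. Read depth is unknown in both. No per-sample column was left unused.

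All genes whose mean over 6 libraries reached 1 were fitted as log2(value + 1) with limma 3.58.1 in R 4.3.3 (trend in the variance, Benjamini-Hochberg over all genes, called under 0.05). On simulated data of 200 changed genes it recovered 63.5% of log2 changes of 0.5 in the RKO design (15590 genes). In the colon design (11366 genes) it recovered 0% of 0.5 and 70.5% of 1. The simulated noise was drawn for each gene on its own, so differences that many genes share between libraries were left out. These rates may therefore not hold in the real libraries, where Zfp280c at -1.67 did not pass in colon (adjusted p = 0.123, limma). The members and lists were chosen with earlier results of these data known. Named were the members, ZNF280C, Hoxb6, Hoxb13, up to 3 genes of a list with the lowest unadjusted p in either comparison (Slc6a6 through RKO), and the 5 genes closest to Lrrc8b. Some genes that this rule names are not reported here. Lep, Gbp3 and Cdc7 in colon were named after their values were seen. GC content came from GENCODE transcripts (84.1% of RKO genes matched) and neighbouring genes from RefSeq.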

Additional observations from a re-analysis of the deposited data

How the results depend on the processing

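In RKO cells 0 of the 5 LRRC8 genes passed in limma under any alternative run. With the GC trend removed, added after the data were seen, the sign turned for LRRC8A (-0.04), LRRC8B (0.02), LRRC8C (0.03) and LRRC8E (-0.03). Leaving out each library in turn gave -0.04 to 0.05 for LRRC8A, -0.09 to 0.01 for LRRC8B, -0.06 to -0.01 for LRRC8C, -0.07 to 0.06 for LRRC8D and -0.03 to 0.06 for LRRC8E. The 178 genes called became 1 with the replicate number as a replicate block, 0 in limma with blocks formed from libraries with equal values (1670 at an unadjusted p under 0.05), and 1 to 24 without any 1 library (24, 17 and 1 without doxycycline replicates 1, 2 and 3, and 3, 1 and 1 without untreated replicates 1, 2 and 3). The split of 60 higher and 118 lower became 59 and 67 at equal sums, 72 and 59 at equal medians, 69 and 62 at equal quantiles and 30 and 105 with the GC trend removed. In colon, Lrrc8b stood at 1.85 with a pseudocount of 0.1, 0.83 with 5 and 1.08 with the position score, where Lrrc8a, Lrrc8d and Lrrc8e stood at 0.02, -0.07 and -0.02. Leaving out each library gave 1.32 to 1.73 for Lrrc8b, -0.31 to -0.12 for Lrrc8a, 0.12 to 0.37 for Lrrc8d and 0.09 to 0.33 for Lrrc8e; since the groups of Lrrc8b do not overlap, its kept sign there is no sign of stability. The colon count was 0 in limma except without wild-type replicate 2 (1861), so the range was 0 to 1861; the colon count was also 0 in the replicate block fit (1242 at an unadjusted p under 0.05). The cause of these shifts was not tested. By their labels, same-numbered libraries share only a number, but in RKO the replicate 2 libraries also hold 310 exactly equal values. Deviations of same-numbered libraries correlated at 0.0811, -0.531 and 0.0629 in RKO and -0.453, -0.137 and 0.151 in colon. ZNF280C passed under every scaling run but neither block (adjusted p = 0.0991 and 0.0769, limma), and OXSR1 passed in neither (0.138 and 0.266) nor with the GC trend removed (0.0535). A minimum mean of 5 left Lrrc8b and Lrrc8c out. No depth is known, so no counting error can be given.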
